A study of Mus musculus with 19 samples.

Results

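The genes described here are the members of 6 families of developmental transcription factors, proteins that switch gene programmes on and off while organs form. They were chosen by name, as protein-coding mouse genes whose symbols begin with Fox, Pax, Tbx, Lhx or Nkx and denote these factors, or are Six2 to Six6. This gave 91 of the 21900 coding genes of the RefSeq table, namely 42 Fox, 14 Nkx, 13 Tbx, 9 Pax, 8 Lhx genes and the 5 genes Six2 to Six6. Another 3 genes with such names are not analysed here.

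Liver DNA was read by reduced-representation bisulfite sequencing, in which fragments cut by the enzymes MspI and TaqαI are treated so that methylated and unmethylated cytosines can be told apart. The 19 mice were all aged 10 months. Wild-type (WT) animals numbered 8 and received no treatment. Animals with Mat1a knocked out (KO) received either placebo (6 mice) or supplementation with S-adenosylmethionine, called SAMe (5 mice), over 8 weeks as the series title states. Mat1a encodes the liver enzyme that makes SAMe, the methyl donor used by DNA methyltransferases. No WT group received placebo or SAMe, so genotype and treatment procedure cannot be told apart in either comparison with WT. The sources used here do not give strain, sex or the design of the KO allele.

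The data are 3 tables in which the authors compared WT with KO placebo, WT with KO SAMe, and the KO groups with each other. Each line is a CpG site, a cytosine followed by guanine, with a methylation difference in percentage points, a p-value and a q-value (a p-value adjusted for the number of sites). Every listed difference exceeded 20 percentage points in size. The tables hold no methylation level, read depth or value per animal, so no spread between animals can be given and depth is unknown. A site that is missing from a table either missed the authors' thresholds or was not covered. The sign of a difference was taken as KO minus WT and as SAMe minus placebo, an order the tables do not state; with the opposite order every direction below is inverted. Whole liver was sampled, so a shift in the mix of cell types and a change within cells cannot be told apart, and RNA was not part of these data.

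Forkhead (Fox) factors bind DNA through a winged-helix domain, and several of them shape the liver and its metabolism. Pax proteins carry a paired domain, Tbx proteins a T-box, and Lhx, Nkx and Six2 to Six6 proteins a homeodomain. Most of these genes are active in particular embryonic tissues and little used in adult liver. Many lie in CpG-rich DNA that is unmethylated in most tissues, and the promoters of silent members are often held by Polycomb complexes in place of DNA methylation.

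In placebo-treated KO liver, methylation was lower than in WT at all 49 listed sites of these genes, and no listed site was higher. The sites fell in or within 2 kb of 17 of the 91 genes (18.7%), where 12.5% of all coding genes had a listed site. Their median difference in the authors' deposited table was −24.7 percentage points (quartiles −31.2 and −22.2), beside −25.9 (quartiles −31.8 and −22.3) over all 6721 sites of that comparison. In SAMe-treated KO liver all 27 listed sites were likewise lower than in WT, in 13 of the 91 genes (14.3%, where 10.8% of all coding genes had a listed site and 10.7% a lower one). Their median in the authors' deposited table was −26.4 (quartiles −30.8 and −23.9), beside −26.6 (quartiles −33.0 and −22.7) over all 5383 sites. With only sites of 25 points or more counted, 9 of 91 members had one with placebo (9.89%, against 7.84% of all coding genes) and 9 of 91 with SAMe (9.89%, against 7.13%). The downward direction is that of the tables as a whole, in which 6678 of 6721 and 5330 of 5383 sites were lower. Large differences, of 40 percentage points or more, occurred at 2 of the 49 and 1 of the 27 sites (4.08% and 3.7%), beside 9.27% and 10.8% over all sites. The largest q-values of the member sites in the authors' deposited tables were 0.00164 with placebo and 0.00114 with SAMe. Both comparisons use the same WT animals and are not independent of each other.

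**Figure D1:**
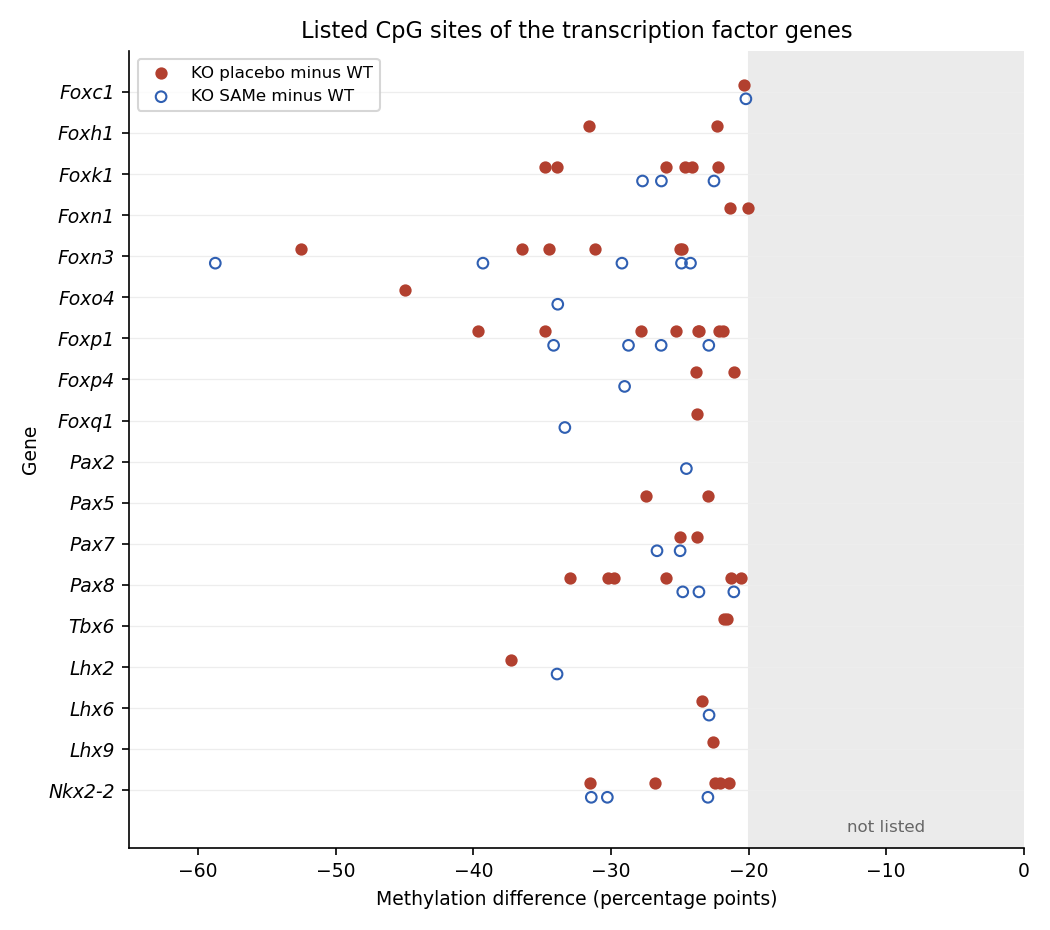
Methylation difference (horizontal axis, percentage points) at each listed CpG site of the 18 genes with a site in either WT comparison (vertical axis, grouped by family). Filled points are KO placebo minus WT and open points KO SAMe minus WT. The shaded range from −20 to 0 is not listed by the authors. Every point lies below −20, and Foxn3 reaches furthest, to −52.5 and −58.8.

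No listed site separated SAMe-treated from placebo-treated KO liver at these genes. The count was 0 of 91 genes, against 0.658% of all coding genes in the authors' deposited table of that comparison, which lists 230 sites in all. At the positions that both WT tables list, the WT level drops out of the subtraction of one difference from the other, which leaves SAMe minus placebo. Over these 22 positions that difference had a median of −0.90 percentage points and ran from −9.61 to 16.8. It lay within 5 points at 16 positions and beyond 10 at 2. Positions listed in only 1 of the WT comparisons cannot enter this subtraction. Positions where the KO groups differ more may therefore be left out.

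Members with a site were counted by family. In placebo-treated KO liver the count was 9 of 42 Fox genes (21.4%), 3 of 9 Pax genes (33.3%), 3 of 8 Lhx genes (37.5%), 1 of 13 Tbx genes (7.69%), 1 of 14 Nkx genes (7.14%) and 0 of the 5 genes Six2 to Six6. With SAMe it was 7 of 42 Fox, 3 of 9 Pax, 2 of 8 Lhx and 1 of 14 Nkx genes, and 0 of 13 Tbx and 0 of 5 Six2 to Six6 genes. The background over coding genes of all lengths was 12.5% with placebo and 10.8% with SAMe. In both comparisons the Fox, Pax and Lhx shares lay above it and the Tbx, Nkx and Six2 to Six6 shares below. These counts are small, and differences between families or from the background were not tested.

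Gene length moved with these counts. The 18 genes with a site in either WT comparison had a median length of 29837 bp, and the 73 without had 6761 bp, beside 17146 bp over all coding genes. Among members over 50 kb, 7 of 16 (43.8%) carried a site with placebo, against 22.5% of all coding genes of that length. With SAMe it was again 7 of 16, against 18.5%. Members of 10 to 50 kb had a site in 5 of 27 (18.5%, background 12.5%) and 3 of 27 (11.1%, background 11.2%). Members under 10 kb had one in 5 of 48 (10.4%, background 6.34%) and 3 of 48 (6.25%, background 5.57%). The short and middle classes were thus close to the background with SAMe. Coverage of CpG sites per gene is not in the tables, and its part in these shares was not tested.

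**Figure D2:**
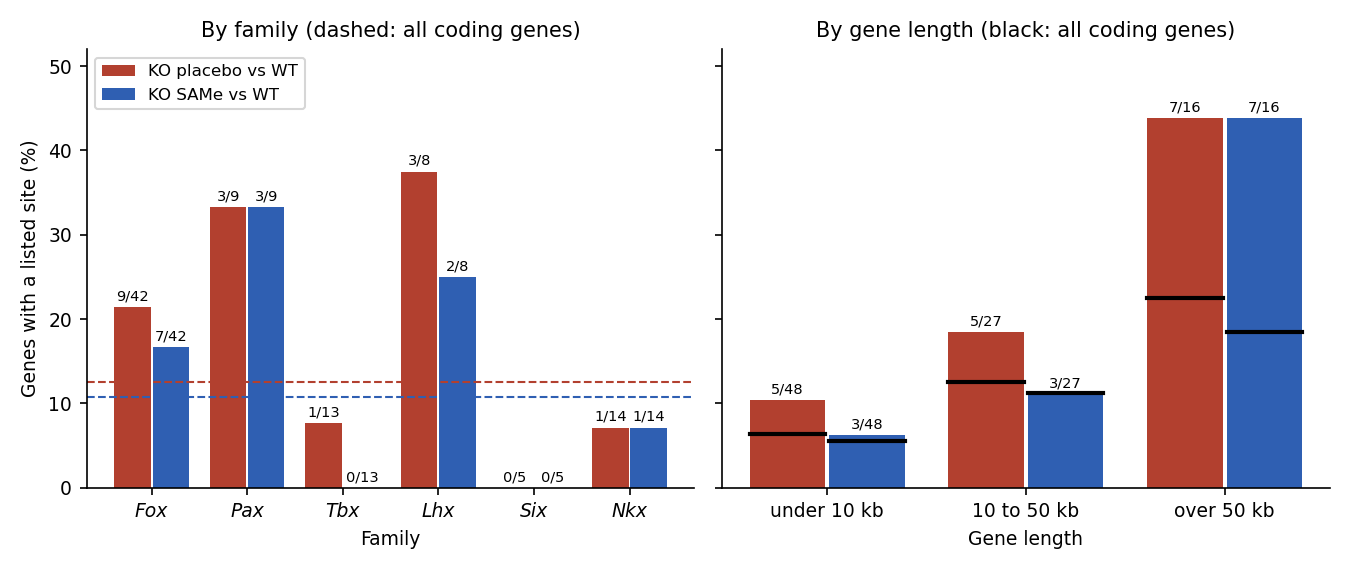
Share of genes with at least 1 listed site (vertical axis, percent), by family on the left and by gene length on the right, for KO placebo vs WT (red) and KO SAMe vs WT (blue). Numbers above the bars are genes with a site over genes in the class. Dashed and black lines give the share over all coding genes. The bars of long members reach 43.8% (7 of 16) in both comparisons, and the Lhx and Pax bars rest on 8 and 9 genes.

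The sites were concentrated in a few genes. In WT vs KO placebo, Foxp1 (8 sites), Foxk1, Foxn3 and Pax8 (6 each) and Nkx2-2 (5) held 31 of the 49 sites (63.3%). Having at least 5 listed sites, a count chosen after the values were seen, was reached by 5 of 91 members (5.49%) and by 0.877% of all coding genes. Among genes over 50 kb it was 4 of 16 members (25%) and 2.0% of coding genes. In WT vs KO SAMe, 1 member (1.1%, background 0.603%) reached it, which was Foxn3. Foxn3 (373.6 kb) was thus the only member over 50 kb to do so with SAMe. The share of all coding genes over 50 kb was not computed for that comparison. When sites within 1 kb were joined, the 54 distinct positions formed 30 runs, of which 17 held a single site and 4 held 3 or more. Those 4 runs lay in Pax8, Nkx2-2, Foxp1 and Foxk1.

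Where the sites lay relative to gene starts was examined for the 14 of the 18 genes that have a start in the RefSeq promoter table (build GRCm38.p6; mm10 is the browser's name for GRCm38). Of the 43 positions in these genes, 9 were within 1 kb of an annotated start and 24 were beyond 10 kb, with a median distance of 21878 bp. None fell inside a promoter window, defined as 250 bases before to 50 after a start. Such sites were rare throughout the tables, which list 6721, 5383 and 230 sites. Only 97 listed sites fell in the promoter window of any gene. The empty window therefore does not set these genes apart. Distances from a start were not computed for all listed sites, so the counts within 1 kb and beyond 10 kb have no background. The 9 close positions belong to Pax8 and Tbx6 only. Of all 54 positions, 46 were inside their member gene and 8 beyond its end. Exons, introns and untranslated regions are not marked in the table.

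**Figure D3:**
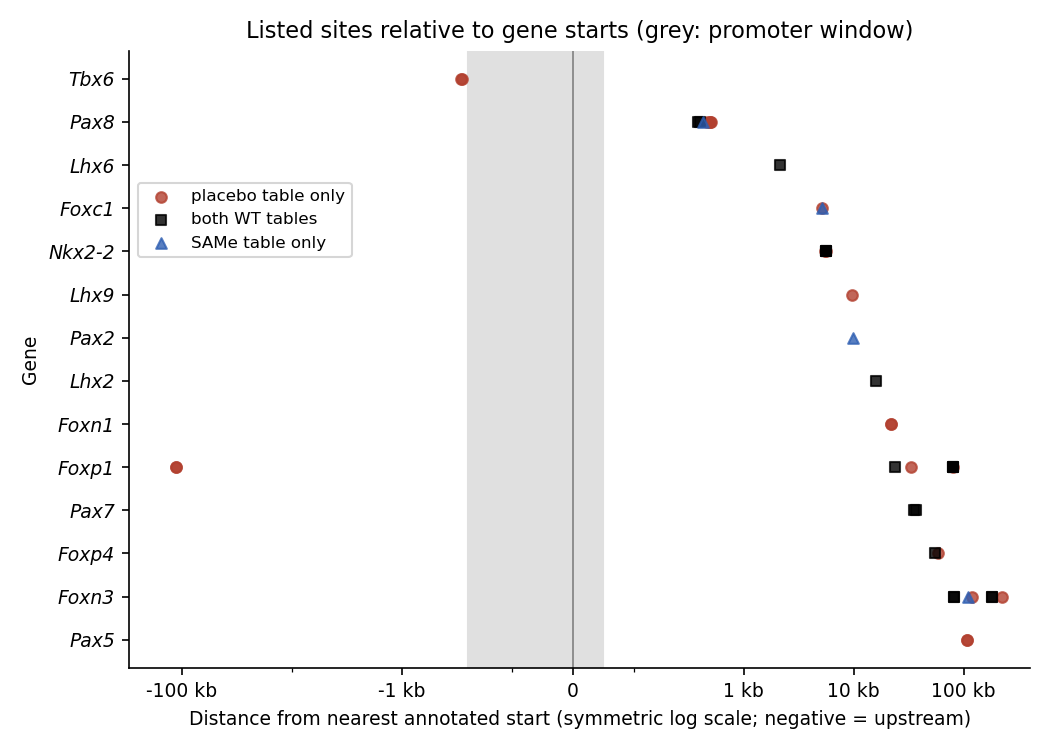
Distance of each listed site from the nearest annotated start of its gene (horizontal axis, symmetric log scale, negative values upstream) for the 14 genes with a known start. Circles are sites of the placebo table only, squares of both WT tables and triangles of the SAMe table only. Tbx6 and Pax8 are the closest to a start, the grey promoter window is empty, and most other sites lie kilobases away.

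The upstream sequences of Tbx6 and Pax8 are shown because theirs were the starts with listed sites nearby. Each is the 250 bases before the start, 5′ to 3′ on the gene's own strand, from RefSeq on GRCm38.p6, with CpG dinucleotides in capitals. The Tbx6 stretch is chr7:126781233-126781482 (plus strand) and the Pax8 stretch chr2:24475600-24475849 (minus strand). The listed Tbx6 sites lie just beyond the 5′ end of the printed stretch, and those of Pax8 lie past its 3′ end, inside the gene.
Tbx6: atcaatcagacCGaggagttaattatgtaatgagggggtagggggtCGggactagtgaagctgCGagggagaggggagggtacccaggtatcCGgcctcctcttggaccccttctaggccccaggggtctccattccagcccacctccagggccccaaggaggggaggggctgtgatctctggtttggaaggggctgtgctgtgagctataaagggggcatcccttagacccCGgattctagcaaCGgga
Pax8: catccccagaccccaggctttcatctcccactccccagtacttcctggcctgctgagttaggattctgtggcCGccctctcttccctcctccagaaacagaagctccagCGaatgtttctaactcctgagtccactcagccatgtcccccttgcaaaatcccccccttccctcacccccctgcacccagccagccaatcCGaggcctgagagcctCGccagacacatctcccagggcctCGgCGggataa
Each stretch holds 6 CpG dinucleotides. Over the 17492 coding genes in the promoter table the median was 11 (quartiles 3 and 20), taking the richest start of each gene, and over the 65 members in it the median was 15 (quartiles 7 and 22). Members with a listed site (14 genes) and without (51 genes) both had a median of 15. Among members with a site, Foxp1 (34), Foxc1 (29) and Foxp4 (27) had the most CpG dinucleotides in this stretch, and Lhx9 (4) and Foxn3 (5) the fewest.

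Pax8 encodes the paired-domain factor of thyroid and kidney development. In WT vs KO placebo it had 6 lower sites, whose differences in the authors' deposited table were −29.8, −20.5, −33.0, −30.2, −26.0 and −21.3 at chromosome 2 positions 24475098, 24475101, 24475109, 24475131, 24475200 and 24475216 (mm10). With SAMe the authors' deposited table gave −23.6 at 24475172, −24.8 at 24475200 and −21.1 at 24475216. All 7 positions span 119 bp, from 383 to 501 bp downstream of the start. The 4 positions furthest from the start were listed with placebo only, while the values at the positions in both tables differed by 1.19 and 0.20 points.

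Other Pax genes had 1 or 2 sites each. Pax7, a factor of muscle stem cells and neural crest, stood at −23.7 and −24.97 with placebo and at −24.97 and −26.7 with SAMe at chromosome 4 positions 139796198 and 139797600 in the authors' deposited table. These sites lie about 37 and 35 kb downstream of its start, and the groups' values differed by 1.23 and 1.69 points. Pax5, the B-cell lineage factor, was listed with placebo only, at −22.9 and −27.5 (positions 44602774 and 44602786 of chromosome 4) in the authors' deposited table. Their q-values, 0.000598 and 6.63e-05, were among the larger ones of the member sites. Pax2, the kidney and eye factor, was the only gene listed with SAMe and not with placebo, at −24.5 (chromosome 19, position 44766782, q = 1.11e-07) in the authors' deposited table. The remaining 5 Pax genes had no listed site.

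Tbx6, a T-box factor of the presomitic mesoderm, was the only Tbx gene with a site. Its differences in WT vs KO placebo were −21.6 and −21.8 at chromosome 7 positions 126781195 and 126781201 in the authors' deposited table, 288 and 282 bp upstream of the start. Both values are close to the threshold of 20, and the sites also lie within 2 kb of the neighbouring gene Ypel3. Neither was listed with SAMe. The other 12 Tbx genes, which include the heart and limb factors Tbx5 and Tbx20, had none.

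Nkx2-2, a homeodomain factor of pancreatic islets and ventral neural tube, was the only Nkx gene with a site. With placebo its differences were −26.8, −31.5, −22.4, −22.1 and −21.5 at chromosome 2 positions 147180792, 147180814, 147180828, 147180836 and 147180937 in the authors' deposited table. With SAMe the authors' deposited table gave −31.4, −30.3 and −23.0 at positions 147180814, 147180828 and 147180836. The run spans 146 bp, between 5465 and 5610 bp downstream of the start. At position 147180828 the SAMe group stood 7.85 points lower than the placebo group by subtraction, and at 147180814 the groups were 0.12 points apart.

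**Figure D4:**
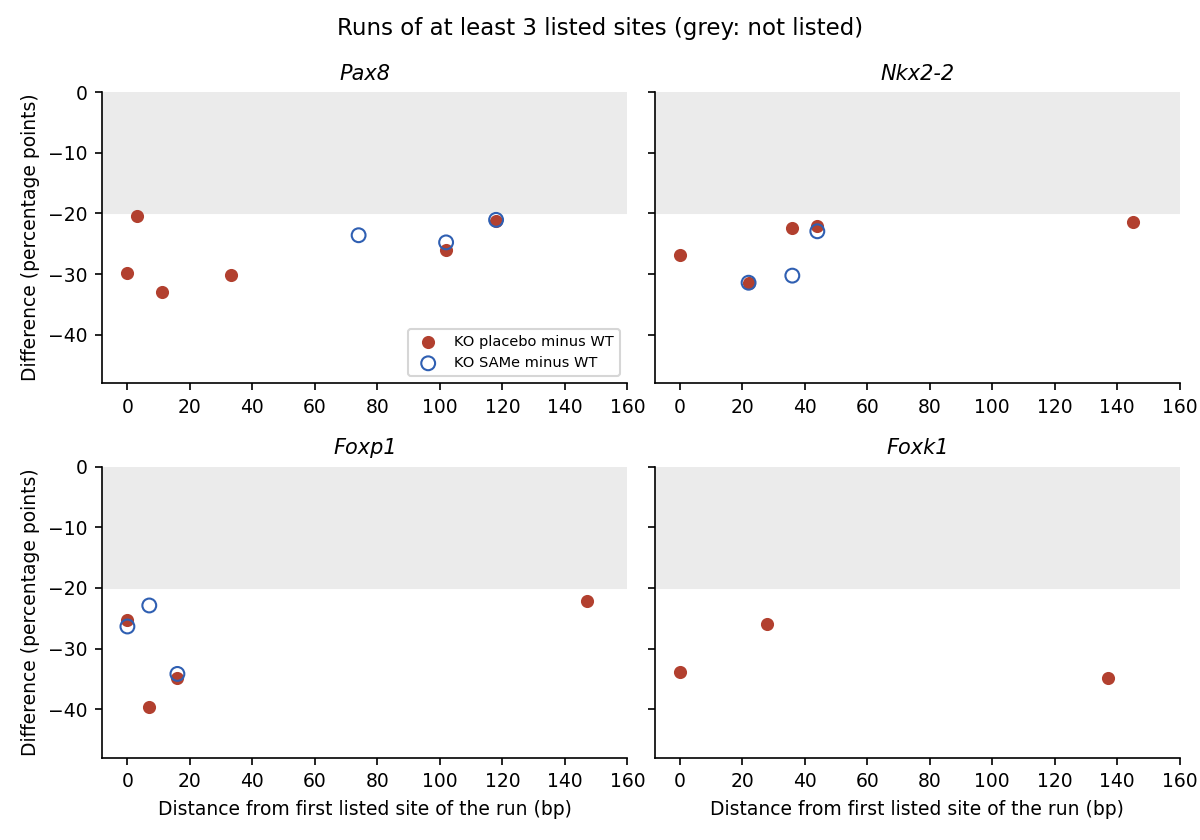
Methylation difference (vertical axis, percentage points) against distance from the first listed site of the run (horizontal axis, bp) for the 4 runs of at least 3 sites. Filled points are KO placebo minus WT, open points KO SAMe minus WT, and the shaded range is not listed. All points are below −20, and Foxk1 has filled points only.

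Among Lhx genes, which encode LIM-homeodomain factors of the brain and limb, each of 3 genes had a single site. Lhx2, which is also active in hepatic stellate cells, had the larger loss, −37.3 with placebo and −33.9 with SAMe at chromosome 2 position 38367339 in the authors' deposited table, a position that also lies inside the non-coding gene Gm13584. Lhx6, a factor of cortical interneurons, stood at −23.4 and −22.9 at chromosome 2 position 36101932 in the authors' deposited table, 2128 bp downstream of its nearest start. Lhx9, a factor of the gonads and brain, was listed with placebo only, at −22.6 (chromosome 1, position 138832688) in the authors' deposited table.

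Foxn3, a forkhead repressor with a role in liver glucose metabolism, had the largest loss of any member. At chromosome 12 position 99368626 the authors' deposited table gave −52.5 with placebo and −58.8 with SAMe, and 1.66% and 0.769% of all lower sites in the respective tables were as low or lower. The adjacent position 99368652 stood at −36.5 and −39.3 in the authors' deposited table. A second pair, at 99267430 and 99267464, gave −24.995 and −31.2 with placebo and −24.2 and −29.2 with SAMe in the authors' deposited table. Single sites were listed with placebo only at 99226732 (−34.5) and 99330160 (−24.8), and with SAMe only at 99341165 (−24.9), in the authors' deposited table. All lie inside the gene, which is 373.6 kb long, and at least 81422 bp from its start in the promoter table. At the 4 positions in both tables the KO groups were between 0.77 and 6.25 points apart.

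The Foxp genes encode forkhead factors that act as dimers, with roles in heart, lung, brain and lymphocytes. Foxp1 is the longest member (597.4 kb) and had 8 sites with placebo and 4 with SAMe. A run at chromosome 6 held −25.3, −39.7, −34.8 and −22.1 at positions 99440083, 99440090, 99440099 and 99440230 with placebo in the authors' deposited table. With SAMe the values there were −26.4, −22.9 and −34.2 at the first 3 of these positions in the authors' deposited table. Position 99440090 thus stood 16.8 points higher in SAMe-treated than in placebo-treated KO liver by subtraction, the largest such gap among the members. The positions 7 bp before and 9 bp after it were 1.10 points lower and 0.62 points higher. A gap of that size is below the authors' threshold of 20, and the position is not listed between the KO groups. Elsewhere in Foxp1 the authors' deposited table gave −27.8 with placebo and −28.7 with SAMe at 99497143. With placebo only it gave −23.6, −23.7 and −21.9 at 99379198, 99379209 and 98994796, the last with the largest q-value of any member site (0.00164). Foxp4 stood at −23.8 with placebo and −29.0 with SAMe at chromosome 17 position 47870205 in the authors' deposited table. A second Foxp4 site, 1027 bp beyond the gene, was at −21.0 with placebo. Foxp2, a speech and brain development gene of 540.6 kb, had no listed site, nor did Foxp3.

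Foxk1, a forkhead factor that acts on glycolysis and autophagy genes downstream of insulin and mTOR, is spread over 60.5 kb of chromosome 5. A run of 3 sites, at 142457435, 142457463 and 142457572, stood at −33.9, −26.0 and −34.8 with placebo in the authors' deposited table, and no site of that run was listed with SAMe. At the other end of the gene, positions 142405150 and 142405303 were at −24.1 and −22.2 with placebo and at −27.7 and −26.3 with SAMe in the authors' deposited table. Between them lay −24.7 at 142442414 with placebo and −22.5 at 142422468 with SAMe in the authors' deposited table. The difference between the KO groups at the run of 3 was not tested here, since the SAMe values there are not in the tables.

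Foxo4, a forkhead factor restrained by insulin signalling through Akt, had the second largest loss with placebo. At chromosome X position 101255299, inside the gene, the authors' deposited table gave −45.0 with placebo and −33.9 with SAMe. By subtraction SAMe-treated KO liver was 11.1 points higher there. It was the only 1 of the 4 members on chromosome X with a site, and the labels do not state the sex of the animals.

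Foxq1 and Foxc1 lie near each other on chromosome 13, and their sites lay beyond the gene ends. Foxq1, a forkhead factor of hair and gut epithelium, stood at −23.7 with placebo and −33.4 with SAMe at position 31562337 in the authors' deposited table, 1361 bp beyond the gene. SAMe-treated KO liver was 9.61 points lower there by subtraction. Foxc1, a factor of the eye and vessels, had different positions in the tables, −20.3 at 31811807 with placebo and −20.2 at 31811848 with SAMe in the authors' deposited table. Both Foxc1 values are near the threshold.

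Foxh1, a partner of Smad proteins in Nodal signalling, had −31.6 and −22.3 at chromosome 15 positions 76666964 and 76666967 with placebo in the authors' deposited table. These positions are 865 and 862 bp beyond the gene and lie inside its neighbour Kifc2. Foxn1, the thymic epithelium factor, stood at −20.1 and −21.3 (chromosome 11, positions 78364730 and 78364768) with placebo in the authors' deposited table. Neither gene was listed with SAMe. The other 33 Fox genes had no listed site with placebo, among them Foxa2 and Foxa3, which help to establish and maintain hepatocyte gene expression, and Foxo1, which drives gluconeogenic genes. Six2 to Six6, whose proteins act with Eya proteins in eye, muscle and kidney formation, had none in any table.

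Proteins that work with these factors were counted from a list of 22 genes, chosen with earlier results of these data known. It holds the Eya and Dach cofactors, LIM-domain partners and relatives (Ldb, Lmo, Isl, Lmx1) and the Tle corepressors. With placebo 7 of the 22 (31.8%, background 12.5%) had a site, and with SAMe 6 (27.3%, background 10.8%), all lower than in WT. These backgrounds are over coding genes of all lengths. Among coding genes over 50 kb they were 22.5% and 18.5%, and the partners were not split by length. Tle6 had 3 sites in each table, down to −43.4 with placebo and −42.9 with SAMe in the authors' deposited table. Tle3, a Groucho-type corepressor, stood at −37.4 with placebo and −50.6 with SAMe at chromosome 9 position 61414192 in the authors' deposited table. Eya3, a phosphatase and transcriptional coactivator, stood at −30.6 and −41.6 at chromosome 4 position 132725548 in the authors' deposited table. Lmo2 was at −28.8 and −27.3 and Lmx1b at −26.6 and −27.8 in the authors' deposited table. Between the KO groups 1 of the 22 (4.55%) had a site, against 0.658% of all coding genes. This was Dach2, 20.5 points higher with SAMe (chromosome X, position 113331034, q = 0.00402) in the authors' deposited table.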

How the data were processed

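CpG methylation was measured by reduced-representation bisulfite sequencing of 19 mouse livers. Per the submitters' processing notes, CASAVA 1.8.2, Trim Galore, Bismark and methylKit were used with mm10, in an order and with settings the notes leave out. The authors deposited, for each of 3 comparisons, listed sites with a p-value, a q-value and a methylation difference in percentage points. The test, coverage minimum and depth per sample are not given in the sources used here, so no interval or leave-one-out value could be computed.

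Sites were assigned to coding genes of RefSeq GRCm38.p6 when they lay inside it or at most 2 kb outside (Python 3.11.15, pandas 2.3.3), a step tested on simulated data. No test was added, and counts stand beside the share of all coding genes. At 26 sites in all 3 tables the differences added up within 1e-08 points, so the tables share 1 orientation. All 97 listed sites inside RefSeq promoter windows fell on a CpG dinucleotide. Promoter entries matched 65 of 91 members. Every member with a listed site was named, and some members without one were named as examples. The members and lists were chosen with earlier results of these data known. Wider and narrower windows and stricter thresholds were tried.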

Additional observations from a re-analysis of the deposited data

How the results depend on the processing

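Requiring a difference of at least 25 percentage points left 9 member genes and 21 sites in WT vs KO placebo, and 9 genes and 15 sites in WT vs KO SAMe (9.89% of members each time, beside 7.84% and 7.13% of all coding genes at that size), since many member sites lie just past the authors' threshold (57.1% and 44.4% were at most 25, beside 44.5% and 39.7% of all listed sites). Widening the window to 5 kb gave 2 of the 91 member genes and 2 sites between the KO groups, where there had been 0. The share of all coding genes at 5 kb was not computed, so this change cannot be set against a background. The median difference moved from −24.7 to −24.9 with 1 value per gene and to −24.98 with sites inside genes only in WT vs KO placebo, and from −26.4 to −28.0 with 1 value per gene in WT vs KO SAMe. A q-value under 0.01 could not change any count. No member site had a q-value above 0.00164, and the count between the KO groups was already 0. Counts inside genes only (13 and 11 genes) stayed within 1.5 times. The share of all coding genes with a site inside them was not computed, so these counts have no background. The members' higher shares in the main counts were not tested. No median could be given between the KO groups. No replicate could be left out, and depth could not be weighed, because the tables hold no value per animal. No paired analysis was possible because the labels carry animal codes and no shared replicate numbers.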

Other observations

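Other families of developmental transcription factors, taken from lists of names, had a listed site in 18 of 139 genes (12.9%, background 12.5%) in WT vs KO placebo and in 20 (14.4%, background 10.8%) in WT vs KO SAMe, and all 40 and 45 sites were lower. The Tead genes, whose proteins carry the output of Hippo signalling, had sites in 2 of 4 genes with placebo and 4 of 4 with SAMe, with Tead3 at −37.3 and −35.9 (chromosome 17, position 28341441) in the authors' deposited table. With SAMe, Tead1, Tead2 and Tead4 had 1 site each, at −24.3, −25.1 and −22.4 in the authors' deposited table. Other small families also had high shares. With placebo they were 2 of 4 Ebf, 2 of 3 Meis and 2 of 4 Pbx genes. With SAMe they were 3 of 4 Ebf, 2 of 3 Meis and 2 of 4 Pbx genes. Differences between these families were not tested. Gata6, an endoderm factor, had 6 sites in each table, the largest −31.1 and −27.8 in the authors' deposited table. Sox9, a biliary and progenitor factor, reached −27.1 with placebo and −31.4 with SAMe in the authors' deposited table. The Irx, Dlx, Msx, Otx and Pitx genes, like the Hox genes, had no site in any table. Between the KO groups 2 of the 139 genes (1.44%) had a site, against 0.658% of all coding genes.

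Meis2, a homeodomain partner of Pbx proteins, stood at −26.4 from WT with placebo at chromosome 2 position 116060820, and the same position was 24.3 points higher with SAMe than with placebo (q = 0.000122), by the authors' deposited table. Another Meis2 site, at 116063198, stood at −20.7 from WT with SAMe in the authors' deposited table. Gata4, the other gene of these families listed between the KO groups, went the opposite way, −20.5 with SAMe relative to placebo (chromosome 14, position 63255347, q = 0.0453), in the authors' deposited table, and another of its sites, at 63240935, stood at −21.8 from WT with placebo. Near Tbx3, which is expressed in hepatoblasts and lies outside the 2 kb window, the authors' deposited table gave −20.5 in WT vs KO placebo at chromosome 5 position 119689111 and 20.1 between the KO groups, higher with SAMe, at position 119689119. The only other site between 2 and 5 kb of a member that was listed between the KO groups lay near Foxb2, at 20.1 (q = 0.0398) in the authors' deposited table. These genes were chosen after their values were seen, and the placebo animals enter both comparisons.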
